A study of Mus musculus with 12 samples.

Results

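The genes described here are 49 imprinted genes of the mouse, chosen by name, of which 40 had a row among the 20308 genes of the expected-count table. Kcnq1ot1, Zfp264, Snurf, Meg3, Rian, Mirg, Airn, Nespas and Peg13 were not analysed here. Of the 40 genes, 33 passed the filter on low counts with 12 libraries and 35 passed it without Controls 3 and 4. RNA came from urogenital sinus epithelium, freed from stroma with trypsin at embryonic day 15.5; in males this epithelium later forms the prostate ducts. The Control group held 4 libraries of wildtype embryos. The Dnmt1cKO group held 8 libraries of embryos in which Dnmt1 had been deleted by a Cre recombinase driven by Shh, a gene that marks this epithelium. All 12 libraries carry the strain label C57BL/6J, and each lysate pooled the tissue of several embryos. With 1 strain the counts add up both parental copies of a gene, so no value below tells which copy was transcribed.

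Imprinted genes are transcribed mainly from the copy inherited from 1 parent. They lie in clusters, and each cluster has a control region that receives DNA methylation in either the egg or the sperm. Dnmt1, the enzyme that copies methylation to newly made DNA, keeps that mark through cell division in the embryo. In most clusters the maternal copy is methylated, and genes read from the paternal copy are active where the region is free of methylation. In the Dlk1-Dio3 cluster and the Igf2 domain the paternal copy carries the mark. Several of the proteins act on growth, such as the growth factor Igf2, its scavenging receptor Igf2r and the cell cycle inhibitor Cdkn1c.

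The libraries were of unequal quality. They held 543591 to 11970907 expected counts, and Control 3 and the library labelled Control 4 were the shallowest, with 1613514 and 543591. Dnmt1 itself stood at 164, 114 and 237 CPM (counts scaled to the size of each library) in Controls 1 to 3 and at 22.8 to 97.0 CPM in Dnmt1cKO. It stood at 2.84 CPM, a single count, in the library labelled Control 4, far below the other Controls and below every Dnmt1cKO library. That library had the fewest genes detected (6744) and was also low in Gnas (71.1 CPM, against at least 816 CPM in the others). Whether its label is right was not tested. The log2 fold change of Dnmt1 was -1.29 ± 0.63 (SE; edgeR quasi-likelihood, Benjamini-Hochberg adjusted p = 0.284). Epithelial markers as a group were present in every library, with the lowest sum of the 16 in Control 3 (4054 CPM). Control 3 had only 2.26, 3.77 and 2.26 CPM of Trp63, Shh and Foxa1 and 0 of Cldn3 and Grhl2. It had 782, 855 and 879 CPM of Epcam, Krt8 and Krt18. Control 3 also held the highest sum of the 16 stromal markers (11495.5 CPM). Controls 1 and 2 stood at 5491 and 5740 CPM of stromal markers, the library labelled Control 4 at 1328 CPM, and Dnmt1cKO at 447 to 6925 CPM. In bulk tissue fewer cells of a type and less RNA per cell cannot be told apart. Control 3 had the highest level of 14 of the 33 tested imprinted genes (42.4%), against 18.2% of all 12761 genes tested.

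Promoters of 4 genes are shown because their genes stood apart from Controls 1 and 2 in opposite directions: Peg3 and Ube3a were above both in every Dnmt1cKO library, and Igf2 and Snrpn were below both. Each sequence runs 5′ to 3′ from 250 bases before to 50 bases after the start of a RefSeq transcript (GRCm38.p6), with CpG, the dinucleotide that Dnmt1 acts on, in capitals. Where RefSeq lists several starts, the one with the most CpGs was taken.
Peg3, chr7:6730370-6730669, minus strand: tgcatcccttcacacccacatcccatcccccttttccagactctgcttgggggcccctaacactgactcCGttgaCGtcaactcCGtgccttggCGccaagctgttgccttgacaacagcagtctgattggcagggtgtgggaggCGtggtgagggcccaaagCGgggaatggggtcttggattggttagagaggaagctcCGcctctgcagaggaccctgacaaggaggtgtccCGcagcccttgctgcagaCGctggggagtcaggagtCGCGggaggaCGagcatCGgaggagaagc
Ube3a, chr7:59228500-59228799, plus strand: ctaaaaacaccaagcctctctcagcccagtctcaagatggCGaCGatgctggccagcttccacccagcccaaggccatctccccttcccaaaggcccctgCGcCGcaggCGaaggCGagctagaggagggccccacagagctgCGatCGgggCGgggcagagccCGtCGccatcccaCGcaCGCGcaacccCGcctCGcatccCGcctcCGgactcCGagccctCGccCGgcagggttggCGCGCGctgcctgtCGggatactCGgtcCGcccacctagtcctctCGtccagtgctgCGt
Igf2, chr7:142658755-142659054, minus strand: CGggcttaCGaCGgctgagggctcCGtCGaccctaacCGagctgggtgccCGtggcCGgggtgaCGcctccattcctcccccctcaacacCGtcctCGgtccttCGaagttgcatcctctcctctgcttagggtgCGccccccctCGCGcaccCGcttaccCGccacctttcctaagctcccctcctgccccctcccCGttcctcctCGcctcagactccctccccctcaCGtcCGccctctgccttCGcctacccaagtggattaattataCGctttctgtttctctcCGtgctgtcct
Snrpn, chr7:60005150-60005449, minus strand: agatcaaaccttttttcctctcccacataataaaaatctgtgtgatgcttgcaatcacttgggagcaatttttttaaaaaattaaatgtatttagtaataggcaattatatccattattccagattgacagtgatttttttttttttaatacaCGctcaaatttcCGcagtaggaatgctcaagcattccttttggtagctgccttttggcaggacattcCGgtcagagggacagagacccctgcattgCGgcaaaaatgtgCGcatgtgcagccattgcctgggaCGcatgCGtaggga

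The promoter stretches of these genes held 13, 29, 24 and 7 CpGs in the order shown. Promoters of 40 of the 49 genes were taken from the RefSeq table, with chromosome 18, where Impact lies, left out. They had a median of 16 CpGs (range 0 to 45), against a median of 8 over 27025 genes taken without that filter. The letters TGCCGC, the core motif of the imprint-protecting zinc finger protein ZFP57, were found on either strand in 13 of the 40 (32.5%) and in 12.2% of all promoters. The motif itself contains a CpG, and no share matched for CpG content was computed. Snrpn and Snurf have the same promoter window, which was counted for each. Of the sequences shown, the Snrpn promoter holds the motif once and the others do not hold it in this window. The Peg3 stretch overlaps the Usp29 promoter (7:6730333-6730632, plus strand), since both genes start back to back.

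Across the imprinted genes a single one passed the test of Dnmt1cKO against Control. Of 33 genes tested, 0 were called higher and 1, Cdkn1c, was called lower (quasi-likelihood test of edgeR, adjusted by Benjamini-Hochberg over all genes, threshold 0.05). In all, 1.03% of the 12761 genes were called higher and 1.55% lower. Before adjustment 3 imprinted genes were higher and 4 lower at p under 0.05 in edgeR, near the shares of all genes (8.19% higher and 9.54% lower). Of those 3, Phlda2 and Slc22a18 had 0 Control counts and passed the filter through Dnmt1cKO alone. DESeq2 and limma-voom also called 0 higher. None of the 33 had all 8 Dnmt1cKO libraries above or below all 4 Control libraries, against 2.59% above and 0.486% below among all genes. The log2 fold change was positive for 12 and negative for 21, with a median of -0.31, while 57.3% of all genes had a positive value and their median was 0.22. The 12 include Phlda2, Slc22a18 and Asb4, which had 2 counts or fewer in Control and passed the filter through Dnmt1cKO.

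Without Control 3 and the library labelled Control 4, 0 of 35 imprinted genes were called in either direction. The shares of all 13990 genes tested were then 0.322% higher and 0.0143% lower. Before adjustment 4 were higher and 2 lower at p under 0.05 in edgeR, beside 6.96% and 2.22% of all genes. Of those 4, Phlda2 had 0 Control counts and passed the filter through Dnmt1cKO alone. With only Controls 1 and 2 to exceed, 3 of the 35 lay above both Controls in every Dnmt1cKO library (4.23% of all genes) and 5 lay below both (4.48% of all genes). The log2 fold change was positive for 16 and negative for 19 (57.2% positive among all genes), with medians of -0.13 for the imprinted genes and 0.16 for all genes. The 16 include Phlda2, Slc22a18, Usp29 and Asb4, which had 2 counts or fewer in Control and passed the filter through Dnmt1cKO.

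**Figure D1:**
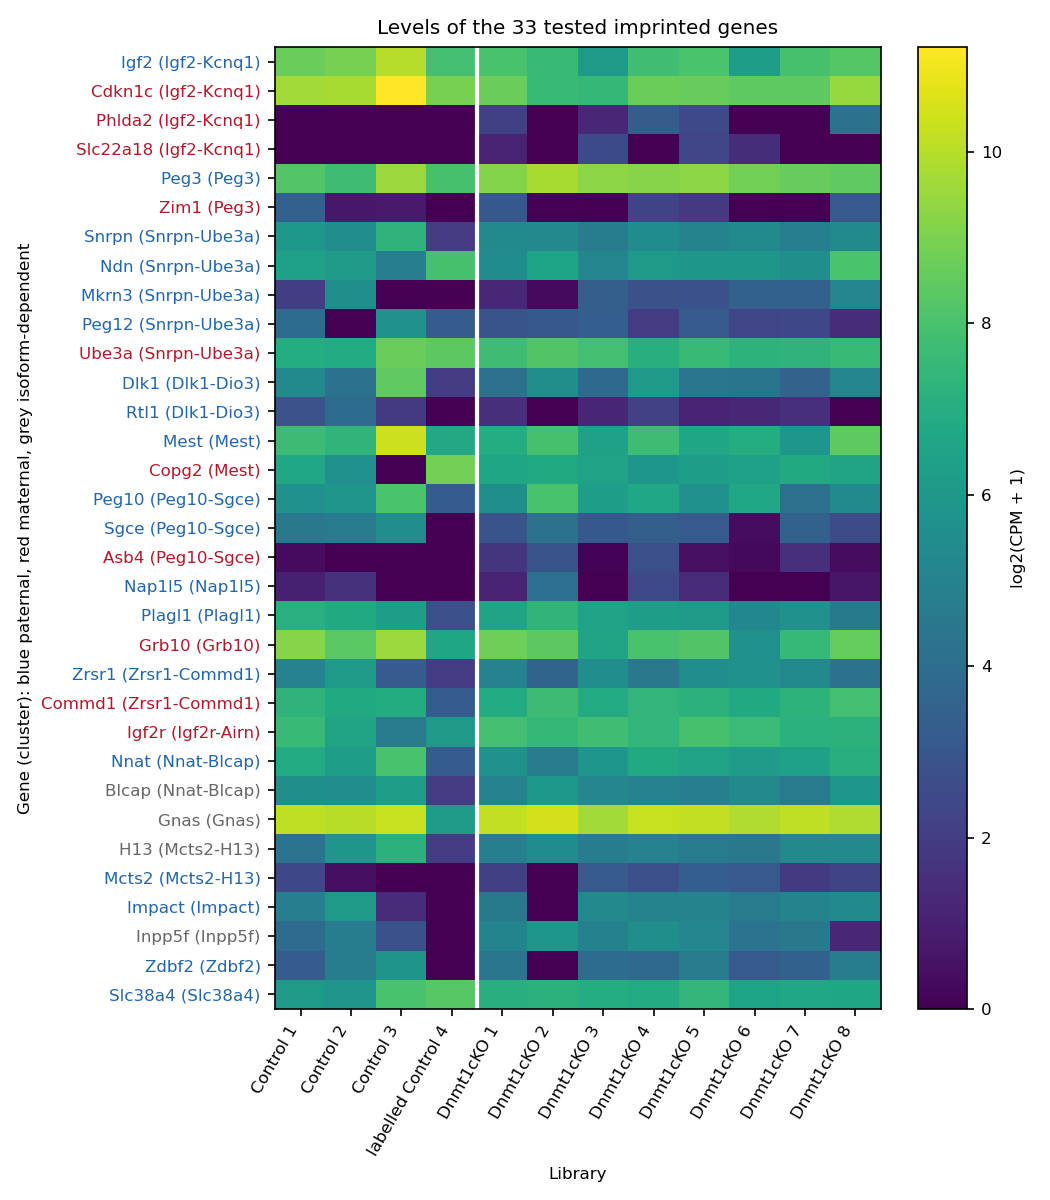
Heat map of log2(CPM + 1) of the 33 tested imprinted genes (rows, with their cluster; label colour gives the expressed parental copy) in the 12 libraries (columns; a white line parts Control from Dnmt1cKO). Control 3 has the highest level of 14 genes, and Phlda2 and Slc22a18 are at 0 in every Control column.

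**Figure D2:**
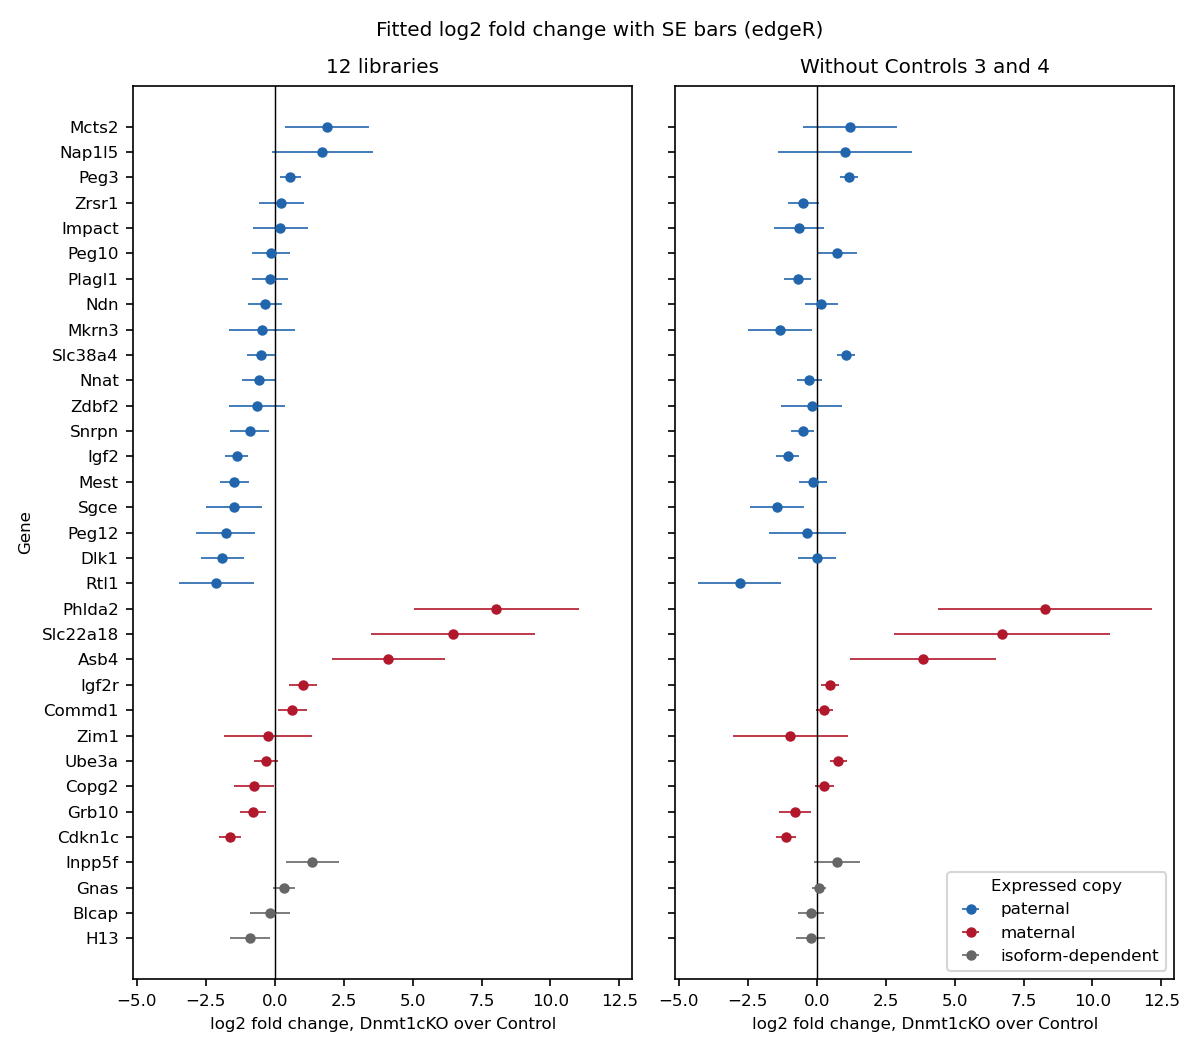
Log2 fold change of Dnmt1cKO over Control with SE bars from edgeR for the 33 tested genes (rows, ordered by expressed copy), with 12 libraries on the left and without Control 3 and the library labelled Control 4 on the right. Cdkn1c is the called gene on the left; no gene is called on the right, and the values of Ndn, Ube3a, Copg2, Peg10, Zrsr1, Impact and Slc38a4 change sign.

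In the Igf2-Kcnq1 cluster of chromosome 7, both abundant genes had lower levels in Dnmt1cKO. Cdkn1c (143458339 to 143461050, minus strand), read from the maternal copy, encodes the cell cycle inhibitor p57. It stood at 806, 872 and 2393 CPM in Controls 1 to 3, at 486 CPM in the library labelled Control 4, and at 175 to 725 CPM with a median of 366 CPM in Dnmt1cKO. Of the 8 Dnmt1cKO libraries 7 lay below every Control library, and Dnmt1cKO 8 lay between the library labelled Control 4 and Control 1. The means were 1139 ± 853 CPM (SD) over the 4 Control libraries and 373 ± 170 CPM (SD) over the 8 Dnmt1cKO libraries. Cdkn1c fell 3.06-fold, with a log2 fold change of -1.61 ± 0.39 (SE) and adjusted p = 0.0200 (edgeR, Benjamini-Hochberg). Without Control 3, its highest library, the log2 fold change was -0.95 with adjusted p = 0.226, and without both Control 3 and the library labelled Control 4 it was -1.11 ± 0.36 with adjusted p = 0.310. All 8 Dnmt1cKO libraries lay below Controls 1 and 2.

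Igf2 (142650766 to 142666816, minus strand) encodes insulin-like growth factor 2, read from the paternal copy. Its levels were 405, 481 and 1005 CPM in Controls 1 to 3, 236 CPM in the library labelled Control 4, and 67.4 to 307 CPM (median 235) in Dnmt1cKO. Every Dnmt1cKO library lay below Controls 1 to 3, and 4 of the 8 lay above the library labelled Control 4. Its log2 fold change was -1.38 ± 0.43 (SE) with adjusted p = 0.0748, and -1.05 ± 0.42 with adjusted p = 0.450 without Control 3 and the library labelled Control 4 (edgeR, Benjamini-Hochberg). Over 21 alternatives the adjusted p of Igf2 ran from 0.0186 to 0.83 (edgeR or the tool named). It was called in 2 of them, with RLE scaling factors (0.0386) and in DESeq2 (0.0186), and not without Control 3 (0.345).

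The other genes of the Igf2-Kcnq1 cluster were at or near the detection limit. Phlda2, a maternally expressed gene that restrains placental growth, had 0 counts in all 4 Control libraries and in Dnmt1cKO 2, 6 and 7, but 18 to 87 counts in the other 5 Dnmt1cKO libraries. Pooled over libraries it was at least 14.9-fold higher in Dnmt1cKO, with 3 counts over the whole Control group as the floor. Slc22a18, a maternally expressed membrane transporter, had 0 counts in Control and 16 to 61 counts in 4 Dnmt1cKO libraries, at least 7.97-fold higher on the same floor. Neither passed the test (adjusted p = 0.146 and 0.247, edgeR, Benjamini-Hochberg). Both genes passed the low-count filter through Dnmt1cKO alone. These bounds on pooled counts cover counting error only. They leave out the spread between libraries and are not lower bounds on the difference between groups. Ascl2, a transcription factor of the placenta, had 13 counts in all, in Dnmt1cKO 1 and 3.

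In the Peg3 cluster, also on chromosome 7, Peg3 was the abundant gene. Peg3 (6703892 to 6730431, minus strand) is a paternally expressed zinc finger protein. It stood at 295, 213 and 736 CPM in Controls 1 to 3, at 250 CPM in the library labelled Control 4, and at 353 to 852 CPM (median 578) in Dnmt1cKO. Every Dnmt1cKO library lay above Controls 1 and 2 and the library labelled Control 4, while Control 3 lay above 7 of the 8. Its log2 fold change was 0.57 ± 0.39 (SE) with adjusted p = 0.487. Without Control 3 and the library labelled Control 4 it was 1.19 ± 0.33, a 2.27-fold difference, with adjusted p = 0.175 and an unadjusted p of 0.00205 (edgeR, Benjamini-Hochberg).

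Usp29, a paternally expressed ubiquitin protease that starts beside Peg3, had 0 counts in Control and 2, 58, 34 and 12 counts in Dnmt1cKO 1, 3, 4 and 5. It was at least 5.99-fold higher in pooled counts, a bound that covers counting error only and leaves out the spread between libraries. Usp29 passed the low-count filter only without Control 3 and the library labelled Control 4, and was not called there (adjusted p = 0.604, edgeR, Benjamini-Hochberg). Zim1, the maternally expressed zinc finger gene of this cluster, had 83.01 expected counts in Control 1 and at most 2 in the other Control libraries. In Dnmt1cKO it had 0 counts in 4 libraries and 27 to 104 in the other 4, so its on and off pattern ran through both groups.

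**Figure D3:**
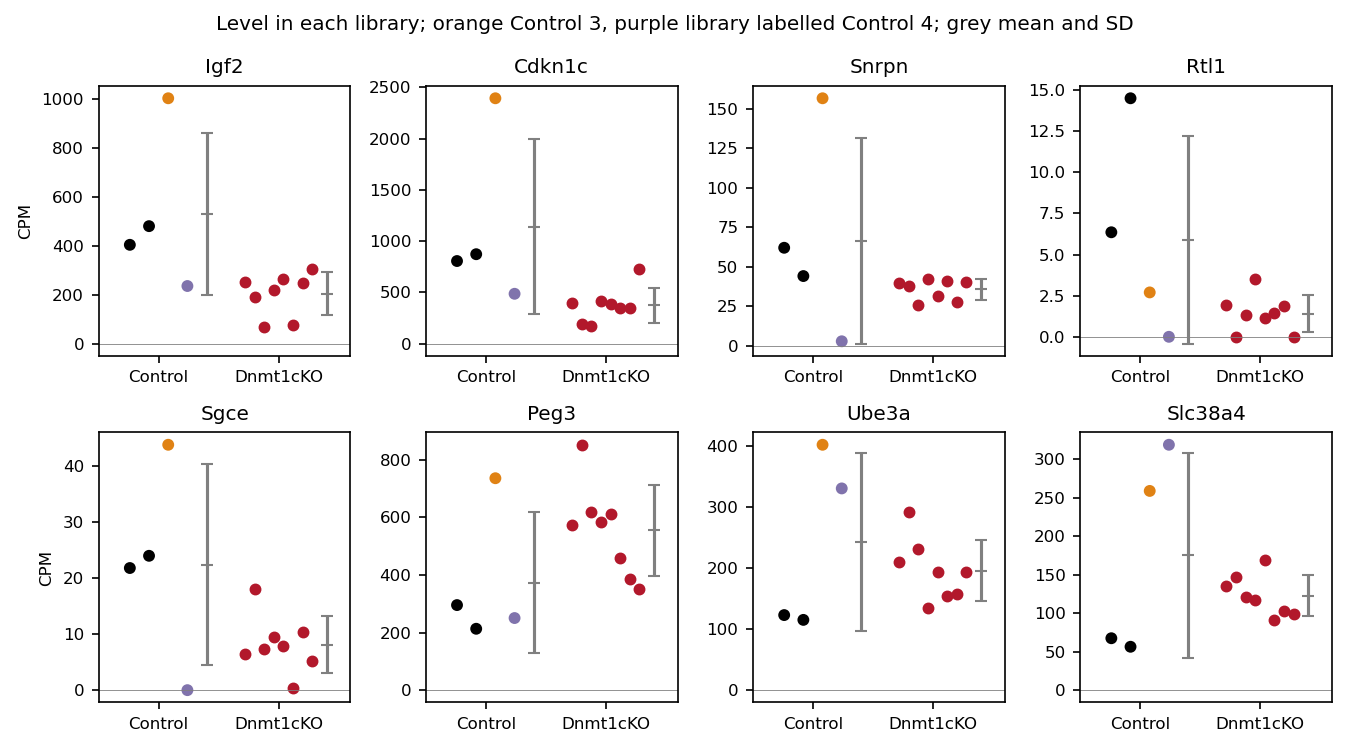
CPM (linear axis) of the 8 imprinted genes whose Dnmt1cKO libraries lay wholly below (Igf2, Cdkn1c, Snrpn, Rtl1, Sgce) or above (Peg3, Ube3a, Slc38a4) Controls 1 and 2, 1 point a library; black points are Controls 1 and 2, orange Control 3, purple the library labelled Control 4, red Dnmt1cKO, and grey bars the group mean with SD. Control 3 lies above every Dnmt1cKO library in the panels of Igf2, Cdkn1c, Snrpn, Sgce, Ube3a and Slc38a4 and within their range in those of Rtl1 and Peg3.

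In the Snrpn-Ube3a cluster, the counterpart of the human Prader-Willi and Angelman region, all 5 tested genes had negative log2 fold changes with 12 libraries (-1.78 to -0.31) and none was called. Snrpn (59982495 to 60140219, minus strand), a paternally expressed spliceosomal protein, stood at 62.1, 44.2 and 157 CPM in Controls 1 to 3 and at 2.84 CPM in the library labelled Control 4. In Dnmt1cKO it kept to a narrow range of 25.8 to 42.6 CPM (35.8 ± 6.54 CPM, SD, n = 8), below Controls 1 to 3. Its log2 fold change was -0.91 ± 0.70 (SE; adjusted p = 0.539), and -0.51 ± 0.41 without Control 3 and the library labelled Control 4 (adjusted p = 0.680, edgeR, Benjamini-Hochberg).

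Ube3a (59228750 to 59311536, plus strand), a ubiquitin ligase that is read from the maternal copy in neurons and from both in most other cells, gave the opposite order. It stood at 123 and 115 CPM in Controls 1 and 2 and at 134 to 292 CPM (median 194) in Dnmt1cKO, but Control 3 (403 CPM) and the library labelled Control 4 (331 CPM) lay above every Dnmt1cKO library. The sign of its log2 fold change followed the Controls kept, with -0.31 ± 0.43 (SE) in 12 libraries and 0.78 ± 0.31 without the pair (adjusted p = 0.766 and 0.431, edgeR, Benjamini-Hochberg). Ndn, which encodes necdin, a growth suppressor of neurons, stood at 27.9 to 247 CPM in Control and 34.1 to 262 CPM in Dnmt1cKO, ranges that nearly coincide. Mkrn3, a RING finger protein, and Peg12, a FRAT family gene, were low, with Dnmt1cKO medians of 7.73 and 5.42 CPM, and Magel2, a MAGE family gene, had counts in 1 Control and 3 Dnmt1cKO libraries.

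In the Dlk1-Dio3 cluster of chromosome 12 Dlk1, Rtl1 and Dio3 are read from the paternal copy, which carries the methylated control region. Dlk1 (109452823 to 109463336, plus strand), a membrane protein of the Delta family, stood at 40.4, 17.9 and 358 CPM in Controls 1 to 3, at 2.84 CPM in the library labelled Control 4, and at 10.7 to 65.0 CPM (median 20.1) in Dnmt1cKO. The high value belonged to Control 3 alone. For Dlk1 the log2 fold change was -1.90 ± 0.77 (SE; adjusted p = 0.182), and without Control 3 and the library labelled Control 4 the means were 29.2 CPM in Control and 28.3 ± 18.9 CPM (SD, n = 8) in Dnmt1cKO (adjusted p = 0.9999, edgeR, Benjamini-Hochberg). Rtl1, a gene derived from a retrotransposon and needed in the placenta, stood at 6.35 and 14.5 CPM in Controls 1 and 2 and at 0 to 3.52 CPM in Dnmt1cKO. It stood at 2.70 CPM in Control 3 and at 0 in the library labelled Control 4, and was not called (log2 fold change -2.12 ± 1.35, SE, adjusted p = 0.442, edgeR, Benjamini-Hochberg). Dio3, the deiodinase that inactivates thyroid hormone, had 39 counts in all, in Dnmt1cKO 3 and 5.

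On chromosome 6, Mest (30723547 to 30748465, plus strand), a paternally expressed enzyme of mesoderm, stood at 209, 160 and 1312 CPM in Controls 1 to 3 and at 108 CPM in the library labelled Control 4, and at 58.1 to 352 CPM in Dnmt1cKO. Its log2 fold change of -1.46 ± 0.54 (SE; adjusted p = 0.142) shrank to -0.13 ± 0.51 without Control 3 and the library labelled Control 4 (adjusted p = 0.954, edgeR, Benjamini-Hochberg). Copg2, a coatomer subunit whose end overlaps that of Mest on the other strand, ranged from 0 to 463 CPM in Control and from 58.4 to 113 CPM in Dnmt1cKO. No source used here says whether counting used strand, so reads from that overlap cannot be assigned.

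Peg10, a retrotransposon-derived gene, and Sgce, which encodes epsilon-sarcoglycan, are paternally expressed and start side by side in opposite directions. Peg10 stood at 49.8 and 57.3 CPM in Controls 1 and 2 and at 16.8 to 253 CPM in Dnmt1cKO, so its groups overlapped. Sgce stood at 21.8, 23.9 and 43.7 CPM in Controls 1 to 3, at 0 in the library labelled Control 4, and at 0.30 to 17.96 CPM in Dnmt1cKO, below Controls 1 to 3 in all 8 libraries. The count of Peg10 per count of Sgce was 2.29, 2.39 and 6.02 in Controls 1 to 3 and 1.63 to 350 in Dnmt1cKO, above Control 3 in 7 of 8 libraries; this ratio was picked out after the values were seen and was not tested. Sgce had a log2 fold change of -1.49 ± 1.01 (SE; adjusted p = 0.478) and Peg10 of -0.13 ± 0.68 (adjusted p = 0.945, edgeR, Benjamini-Hochberg). Asb4, a maternally expressed ankyrin repeat protein, had 2 counts in Control, both in Control 1, and 144 in Dnmt1cKO, at 1 to 56 a library. Dnmt1cKO 3 and 6 (0.0771 and 0.200 CPM) lay below Control 1 (0.246 CPM). The ratio of pooled counts was 12.2 (exact 95% counting interval 3.32 to 102, which leaves out the spread between libraries). Asb4 passed the filter through Dnmt1cKO and was not called (adjusted p = 0.292, edgeR, Benjamini-Hochberg). Nap1l5, a paternally expressed gene of the nucleosome assembly family, had 14 counts in Control and 152 in Dnmt1cKO, of which 73 came from Dnmt1cKO 2.

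The maternally expressed genes that restrain IGF and insulin signalling did not share a direction. Igf2r (chromosome 17, 12682406 to 12769664, minus strand), the receptor that takes up Igf2 for degradation, stood at 191, 94.1 and 24.1 CPM in Controls 1 to 3, at 65.4 CPM in the library labelled Control 4, and at 145 to 248 CPM (median 190) in Dnmt1cKO. Control 1 lay within the Dnmt1cKO range and the other Control libraries below it. The log2 fold change was 1.02 ± 0.50 (SE; adjusted p = 0.280), and 0.49 ± 0.32 without Control 3 and the library labelled Control 4 (adjusted p = 0.616, edgeR, Benjamini-Hochberg). Grb10 (chromosome 11, 11930508 to 12038683, minus strand), an adaptor that dampens insulin and IGF receptors, stood at 576, 330 and 735 CPM in Controls 1 to 3, at 99.5 CPM in the library labelled Control 4, and at 48.3 to 428 CPM in Dnmt1cKO, with log2 fold changes of -0.79 ± 0.48 and -0.79 ± 0.57 with and without the pair (adjusted p = 0.410 and 0.647, edgeR, Benjamini-Hochberg). The placental cation transporters Slc22a2 and Slc22a3, neighbours of Igf2r, had 24 and 3 counts over all 12 libraries. The count of Igf2 per count of Igf2r was 2.12, 5.12 and 41.7 in Controls 1 to 3 and 0.307 to 2.08 in Dnmt1cKO, with 3.61 for the library labelled Control 4, so these ranges did not overlap; the gap between Control 1 and Dnmt1cKO 8 was small, and the ratio was picked out after the values were seen and was not tested.

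Among the genes that stand alone, Slc38a4 (chromosome 15, 96994820 to 97055956, minus strand), a paternally expressed amino acid transporter, stood at 67.4 and 56.3 CPM in Controls 1 and 2 and at 91.3 to 169 CPM (median 119) in Dnmt1cKO. Control 3 and the library labelled Control 4 stood at 259 and 318 CPM, above every Dnmt1cKO library. For Slc38a4 the log2 fold change changed sign, from -0.50 ± 0.50 (SE; adjusted p = 0.644) to 1.05 ± 0.32 without the pair (adjusted p = 0.260, unadjusted p = 0.00449, edgeR, Benjamini-Hochberg). Plagl1, a paternally expressed zinc finger transcription factor that regulates other imprinted genes, stood at 138, 111 and 76.9 CPM in Controls 1 to 3, at 5.69 CPM in the library labelled Control 4, and at 22.5 to 162 CPM in Dnmt1cKO, with a log2 fold change of -0.18 ± 0.64 (SE). Impact, a regulator of the Gcn2 kinase, stood at 27.05, 63.4 and 1.51 CPM in Controls 1 to 3 and at 22.3 to 39.9 CPM in Dnmt1cKO apart from Dnmt1cKO 2, where it had 0 counts. Zdbf2 stood at 8.73, 26.3 and 54.3 CPM in Controls 1 to 3 and at 0 to 25.4 CPM in Dnmt1cKO, below Controls 2 and 3. Both genes were at 0 in the library labelled Control 4. Kcnk9, a potassium channel, had 6 counts, all in Dnmt1cKO 5.

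Several paternally expressed genes or isoforms lie within a host gene. Nnat, which encodes the membrane proteolipid neuronatin, stood at 115, 77.5 and 256 CPM in Controls 1 to 3 and at 24.02 to 131 CPM in Dnmt1cKO, and its host Blcap at 47.2, 44.5 and 73.9 CPM and at 23.2 to 62.9 CPM. The retrogene Zrsr1 and its host Commd1 had log2 fold changes of 0.24 ± 0.81 and 0.64 ± 0.54 (SE), and the retrogene Mcts2 and its host H13 of 1.89 ± 1.52 and -0.89 ± 0.74. Gnas, which encodes the stimulatory G protein alpha subunit and other products from several promoters, stood at 1148, 1033 and 1239 CPM in Controls 1 to 3 and at 816 to 1417 CPM in Dnmt1cKO. The library labelled Control 4 held 71.1 CPM of Gnas. Inpp5f, a phosphatase gene with a paternally expressed short variant, had a log2 fold change of 1.37 ± 0.96 (SE). None of Nnat, Blcap, Zrsr1, Commd1, Mcts2, H13, Gnas and Inpp5f was called (adjusted p = 0.493 to 0.940, edgeR, Benjamini-Hochberg), and the table gives 1 value a gene, so isoforms are not resolved.

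Per kilobase of exon, Cdkn1c was the highest of the imprinted genes in both groups, at 432 CPM per kb in the mean of Controls 1 and 2 and at 192 in Dnmt1cKO. Gnas followed at 105 and 106. Grb10, Igf2, Nnat and Mest came next in Controls 1 and 2 (88.3 to 66.5 CPM per kb), levels that overlap between libraries. Over all 4 Control libraries Cdkn1c (587) was followed by Mest (161), Igf2 (101), Grb10 (84.8) and Gnas (84.1 CPM per kb). In Dnmt1cKO Peg3 took the third place with 63.8 CPM per kb, against the seventh with 29.2 in Controls 1 and 2. Lengths are the union of GENCODE M21 exons, which may differ from those used for counting.

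Grouped by the expressed copy, 19 paternally and 10 maternally expressed genes were tested, with 0 called higher in either group and 0 and 1 called lower. The median log2 fold change was -0.50 for paternally expressed genes (5 positive, 14 negative) and 0.20 for maternally expressed genes (5 positive, 5 negative), beside 0.22 for all genes. Without Control 3 and the library labelled Control 4 the medians were -0.27 over 21 and 0.38 over 10 genes, beside 0.16. Phlda2, Slc22a18 and Asb4 had 2 counts or fewer in Control and passed the filter through Dnmt1cKO, so they had to be higher there. Without these 3 genes, left out after the values were seen, the maternal median was -0.31 (2 positive, 5 negative) with 12 libraries and 0.27 (4 positive, 3 negative) without the pair of Controls. Ube3a counts as maternal here though most cells other than neurons read both copies. Leaving it out too gave maternal medians of -0.50 (2 positive, 4 negative) with 12 libraries and -0.26 (3 positive, 3 negative) without the pair. The maternal median was also negative when any 1 of Dnmt1cKO 1 to 7 was left out (-0.50 to -0.038, with 8 or 9 genes tested). It was 0.17 without Dnmt1cKO 8. The paternal median was -0.074 without Control 3.

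Grouped by the control region, 15 tested genes are assigned to the copy that lacks methylation there, and 14 to the methylated copy. The assignment is that of the tissues in which each gene is known to be imprinted, which for Ube3a are neurons. Zdbf2 was placed in the methylated class by methylation of its paternal copy, which need not be the mark set in the germline. The medians were -0.35 (5 positive, 10 negative) and -0.47 (5 positive, 9 negative), and none and 1 were called. Without Control 3 and the library labelled Control 4 they were -0.27 (7 positive, 10 negative) and 0.14 (7 positive, 7 negative). With Phlda2, Slc22a18 and Asb4 left out, the methylated class had medians of -0.75 with 12 libraries and -0.18 (4 positive, 7 negative) without the pair. With Ube3a left out as well these medians were -0.77 and -0.48 (3 positive, 7 negative). With Usp29, which had 0 Control counts, left out, the unmethylated class had a median of -0.31 without the pair. Of the genes that lay wholly on 1 side of Controls 1 and 2, the unmethylated class held Peg3 and Slc38a4 above and Snrpn and Sgce below. Igf2, Cdkn1c and Rtl1, all below, belong to the methylated class, as does Ube3a, above, by its imprint in neurons.

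Mesenchyme expresses several of these genes, and the stromal markers tended to be lower in Dnmt1cKO. Their sums overlapped between the groups, at 1328 to 11495.5 CPM in Control and 447 to 6925 CPM in Dnmt1cKO. Among 16 stromal markers 15 had negative log2 fold changes (median -1.48; 0 called), and Controls 1 and 2 stood above 7 of the 8 Dnmt1cKO libraries in their sum. In Dnmt1cKO 3, 6 and 7, with the lowest sums (634, 447 and 631 CPM), Igf2 stood at 67.4, 75.5 and 250 CPM and Cdkn1c at 175, 344 and 344 CPM. In Dnmt1cKO 2 and 4, the highest of their group with sums of 6925 and 4617 CPM beside 5491 and 5740 CPM in Controls 1 and 2, Igf2 stood at 192 and 221 CPM against 405 and 481 CPM, and Cdkn1c at 189 and 418 CPM against 806 and 872 CPM. Peg3 stood at 852 and 582 CPM in those Dnmt1cKO libraries against 295 and 213 CPM. Dnmt1cKO 8, next with a stromal sum of 3932 CPM, held 725 CPM of Cdkn1c, close to Control 1, and 307 CPM of Igf2, the highest of its group for both genes. Each of the 16 stromal markers had counts in both groups. Markers of neurons and glia also tended to be lower in Dnmt1cKO: all 11 tested had negative log2 fold changes (median -1.86). The sums of these markers overlapped, at 717 to 4665 CPM in Control and 45.5 to 1988 CPM in Dnmt1cKO. Of these, the neuronal RNA-binding protein Elavl3, was called lower (adjusted p = 0.0382, edgeR, Benjamini-Hochberg), but not without Control 3 and the library labelled Control 4 (adjusted p = 0.787, edgeR, Benjamini-Hochberg). Neurons are known to express Ndn, Nnat, Dlk1 and Snrpn. The erythroid markers summed to 429 to 5826 CPM in Control and 10.5 to 1540 CPM in Dnmt1cKO. In each of these sums Control 3 was the highest library. The part of stroma, nerve or blood in the group differences was not tested.

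**Figure D4:**
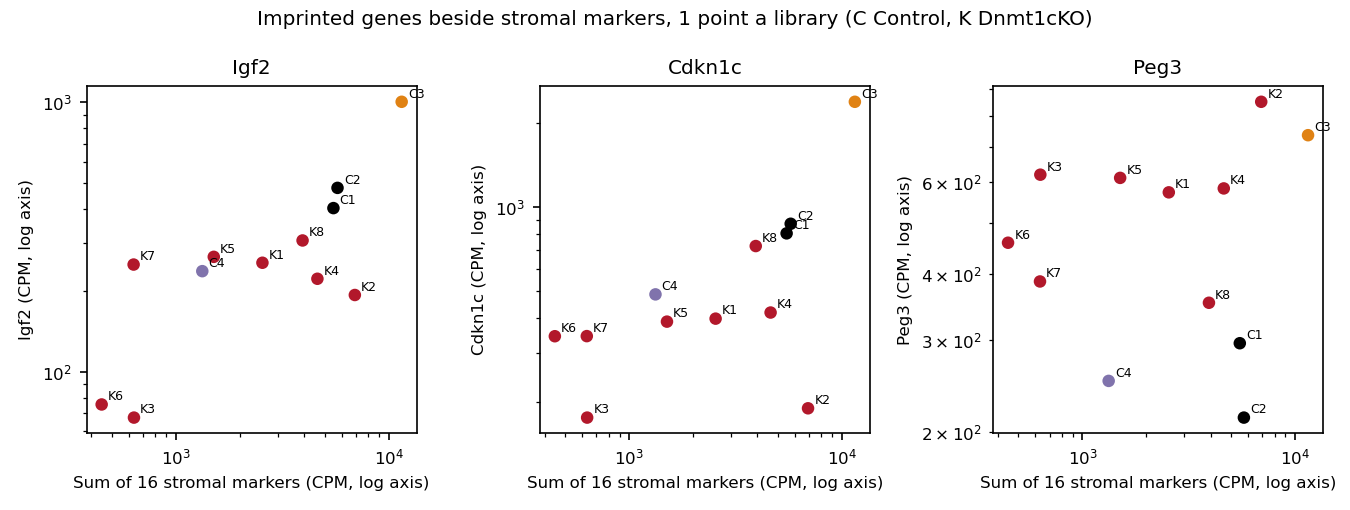
Igf2, Cdkn1c and Peg3 (CPM, log axes) against the sum of 16 stromal markers in CPM, 1 point a library (C Control in black, orange for Control 3 and purple for the library labelled Control 4; K Dnmt1cKO in red). Dnmt1cKO 2 and 4 lie near Controls 1 and 2 in stromal sum (6925 and 4617 against 5491 and 5740 CPM) and lower in Igf2 and Cdkn1c, while Dnmt1cKO 8 (3932 CPM) has 725 CPM of Cdkn1c, near Control 1 at 806.

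Sample descriptions carry a code, the letter b with a number, that both groups share for 4 to 7. Within the codes 4, 5, 6 and 7, Igf2 differed by -2.55, -1.11, -1.91 and -0.39 and Cdkn1c by -2.19, -1.06, -2.62 and -0.14 in log2(CPM + 2), Dnmt1cKO less Control. Both were thus lower within every code, with small differences within code 7, whose Control is the library labelled Control 4. Peg3 differed by 1.06, 1.44, -0.27 and 0.66. Of the 33 genes, 14, 18, 14 and 26 were higher within these codes (42.4%, 54.5%, 42.4% and 78.8%), beside 48.5%, 56.0%, 64.7% and 78.3% of all genes tested.

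Other genes tied to imprinting gave few calls. Among all genes tested with 12 libraries, 1.03% were called higher and 1.55% lower. Without Control 3 and the library labelled Control 4 these shares were 0.322% and 0.0143%. Of 35 further imprinted genes, 21 were tested and 0 were called (before adjustment, 3 higher and 2 lower at p under 0.05 in edgeR, beside 8.19% and 9.54% of all genes). Among 15 tested genes of imprint maintenance, Arid4a and Arid4b, whose products bind the Snrpn control region in mice, were called lower, at 3.22-fold and 3.19-fold (adjusted p = 0.0285 and 0.0208, edgeR, Benjamini-Hochberg). Without Control 3 and the library labelled Control 4 the falls were 1.41-fold and 1.42-fold (adjusted p = 0.585 and 0.652, edgeR, Benjamini-Hochberg). Among 15 tested genes of IGF signalling 0 were called higher and 3 lower: the IGF-binding proteins Igfbp2 and Igfbp5 and the receptor substrate Irs1, 3.63-fold, 2.18-fold and 3.11-fold (adjusted p = 0.0351 to 0.0466, edgeR, Benjamini-Hochberg). Without the pair they were 1.88-fold, 1.76-fold and 1.45-fold lower and none was called (adjusted p = 0.245 to 0.612, edgeR, Benjamini-Hochberg).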

How the data were processed

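Polyadenylated RNA of 4 Control and 8 Dnmt1cKO libraries was sequenced. The authors deposited RSEM expected counts, which are estimated counts per gene; RSEM 1.2.3, Bowtie 0.12.9, bcl2fastq 2.17.1.14 and build mm10 are named per the submitters' processing notes. No source used here names the annotation or the use of strand. Of the 40 genes with a row, 20 had a fractional value. Counts were rounded and tested with edgeR 4.0.16 in R 4.3.3 (quasi-likelihood, TMM factors, robust, filterByExpr at 10 counts and a total of 15), genotype as the only term, Benjamini-Hochberg adjustment over all genes. SE is the log2 fold change divided by the square root of F. Levels are CPM on TMM-scaled totals. The square root of the common dispersion was 0.984. The script was tested on simulated data. Alternatives used DESeq2 1.42.0, limma 3.58.1, other scaling, other filters, blocks and fewer libraries. Genes named in full were Dnmt1, called genes, genes without overlap between groups, and the most abundant of each cluster. The genes and lists were chosen with earlier results of these data known. Groups follow the labels. Whether Dnmt1cKO 6 to 8, which share a description code, were separate pools is not stated; the spread behind the p-values may be partly technical. Promoters are RefSeq, and gene positions GENCODE M21 (GRCm38).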

Additional observations from a re-analysis of the deposited data

Results flagged for a closer look

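In 13 cases 1 library of a group lay far from the others by Dixon's criterion, which chance meets in about 1 of 20 groups of normally spread values. Levels with many zeros need not keep that rate, and the number of groups examined is not given here. The 13 cases can therefore not be set against chance. Control 3 was far above the other Controls in Peg3 (736 against at most 295 CPM), Dlk1 (358 against 40.4) and Mest (1312 against 209). Control 1 was the high one in Zim1 (10.2 against 0.754 CPM), Asb4 (0.246 against 0) and Mcts2 (4.18 against 0.337), and Control 2 in Mkrn3 (47.9 against 3.20). The Asb4 case rests on 2 counts in Control 1, while 1 count alone is 0.337 to 2.84 CPM in Controls 2 to 4. Dnmt1cKO 8 was far above the other Dnmt1cKO libraries in Cdkn1c (725 against 418 CPM), Ndn (262 against 90.5) and Mkrn3 (33.4 against 10.2). Dnmt1cKO 2 was high in Peg10 (253 against 107 CPM) and Nap1l5 (16.4 against 4.64), and Impact was at 0 there against at least 22.3 CPM.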

How the results depend on the processing

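Over 21 alternatives Cdkn1c had log2 fold changes of -1.85 to -0.95 and was called in 16 (adjusted p 0.00419 to 0.310, edgeR or the tool named). It lost its call without Control 3 (0.226), without both Control 3 and the library labelled Control 4 (0.310), in limma-voom with quality weights (0.0955) and with a block. The number of imprinted genes called lower was 1, and 0 in these 5 settings; it was 2 with RLE factors and with DESeq2, where Igf2 joined. Leaving out 1 library gave 0 to 1. No setting called an imprinted gene higher. The medians of paternally and maternally expressed genes, -0.50 and 0.20, became 0.17 and 1.04 with a replicate block by description code and -0.097 and 0.79 with a replicate block by title number, where the median of all genes was 1.09 and 0.908. Correlations of same-numbered libraries, taken after removing group means, were -0.0551 to 0.0613. These values cannot show whether either number pairs the samples, because Control 3 and the library labelled Control 4 lay far from the other Controls. Without any filter the maternal median was 0.889. Leaving out genes of 3 or fewer Control counts, chosen after seeing the data, gave -0.305. Leaving out 1 library gave -0.73 to -0.074 for paternally and -0.50 to 1.30 for maternally expressed genes; the lowest of the latter came without Dnmt1cKO 1, which left 8 genes tested, and the highest without Control 1. The median of all genes was 0.0723 under RLE scaling and 0.378 when only totals were used. Calls over all genes were 170 higher and 726 lower, and 113 and 47, in these settings, 487 and 1030 in DESeq2 and 7 and 25 in limma-voom, against 132 and 198. Genes under about 5 CPM rest on few counts in Controls 2 to 4, where 1 count is 0.337 to 2.84 CPM.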
